A study of Mus musculus with 6 samples.

Results

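The Vmn2r genes encode the type 2 vomeronasal receptors of the mouse. The members were the protein-coding autosomal genes of the mm10 build whose symbol is Vmn2r followed by a number, and 122 of 20665 protein-coding autosomal genes met this rule. Of the 126 symbols of that form, 3 were pseudogenes (Vmn2r125, Vmn2r127 and Vmn2r128) and 1 protein-coding gene, Vmn2r121, lay on the X chromosome, and these 4 were left out. A peak was counted at a gene when it overlapped the gene span with 1000 bp added on each side. Methylated DNA of mouse lung had been captured with a methyl-binding-domain protein and sequenced (MBD-seq), with 1 library from each of 3 transgenic and 3 wild-type lungs. The transgenic mice carried SPC-DNMTdelta3B/DG, in which the surfactant protein C promoter, active in alveolar type 2 cells, drives the DNMT3B splice variant ΔDNMT3B4-del; the label of transgenic replicate 2 spells the construct SPC-DNMTdeltaB/DG. The labels give 4 founder lines and do not say which one each transgenic library came from. All mice were 12 to 16 months old, the wild-type mice matched for age, and whole lung was used, so cell types are mixed in every library.

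Type 2 vomeronasal receptors are class C G protein-coupled receptors with a large extracellular N-terminal domain that binds peptide and protein pheromones. They are made in the basal sensory neurons of the vomeronasal organ, which carry the G protein subunit Gnao1 and signal through the channel Trpc2. The genes lie in tandem clusters that arose by duplication. The capture protein binds methylated CpG, so a peak needs both CpG and methylation, and a stretch without a peak is not thereby shown to be unmethylated.

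The peak lists held 120349, 116352 and 78952 peaks in transgenic replicates 1 to 3, against 60131, 111211 and 30640 in wild-type replicates 1 to 3. Wild-type replicates 1 and 3 had the fewest peaks, and wild-type replicate 2 had more than transgenic replicate 3. The files give no read counts, so the depth behind the lists is unknown. Each peak carries the authors' score, 50 or more in every list, with no statement of how it is scaled between libraries. No expression was measured, so the lung label could not be checked against marker genes. In these bulk libraries, fewer cells with a methylated copy and fewer methylated sites per cell cannot be told apart.

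The CpG content of the start of the genes is shown first, because CpG is what the assay can capture. RefSeq promoter windows of GRCm38.p6 (mm10), from 250 bases before to 50 bases after the first listed start of the gene, were found for 115 of the 122 members. That start is not always the border of the gene span. The Vmn2r1 window, for example, lies inside its span, which begins at 64078172. The 4 windows below are those of Vmn2r29, the member with the most CpG and the only one with a peak on its promoter; Vmn2r27, with the highest-scoring peak inside any member; Vmn2r116, the receptor of the male peptide pheromone ESP1; and Vmn2r1, a receptor that is co-expressed broadly with other members. They are printed 5′ to 3′ on the strand of the gene, with each CpG in capitals.
Vmn2r29, chr7:7278240-7278539, minus strand: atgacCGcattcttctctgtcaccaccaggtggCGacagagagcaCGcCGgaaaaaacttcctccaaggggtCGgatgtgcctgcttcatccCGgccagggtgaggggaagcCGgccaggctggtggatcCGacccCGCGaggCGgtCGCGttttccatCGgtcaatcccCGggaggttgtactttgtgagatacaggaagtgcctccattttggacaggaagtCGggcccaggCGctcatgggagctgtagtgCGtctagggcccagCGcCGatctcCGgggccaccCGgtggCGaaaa
Vmn2r27, chr6:124231735-124232034, minus strand: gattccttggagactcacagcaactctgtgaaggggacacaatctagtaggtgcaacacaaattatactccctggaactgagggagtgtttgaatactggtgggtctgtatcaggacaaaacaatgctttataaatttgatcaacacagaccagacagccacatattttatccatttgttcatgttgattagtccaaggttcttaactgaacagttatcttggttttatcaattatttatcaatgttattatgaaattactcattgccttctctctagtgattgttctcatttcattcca
Vmn2r116, chr17:23384553-23384852, plus strand: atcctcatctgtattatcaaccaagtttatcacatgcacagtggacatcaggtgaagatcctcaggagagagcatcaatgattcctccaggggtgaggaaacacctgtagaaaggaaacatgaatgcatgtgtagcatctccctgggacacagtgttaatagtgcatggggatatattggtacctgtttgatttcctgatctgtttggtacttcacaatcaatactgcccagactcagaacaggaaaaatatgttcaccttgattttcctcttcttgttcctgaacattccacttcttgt
Vmn2r1, chr3:64081392-64081691, plus strand: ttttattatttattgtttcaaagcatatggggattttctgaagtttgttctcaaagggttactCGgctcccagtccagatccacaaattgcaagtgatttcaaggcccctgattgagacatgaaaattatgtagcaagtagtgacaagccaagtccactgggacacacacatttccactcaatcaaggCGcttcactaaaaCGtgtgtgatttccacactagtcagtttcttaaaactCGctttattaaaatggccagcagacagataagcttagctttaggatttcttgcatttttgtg

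The motif counted was CG, which reads the same on both strands. The Vmn2r29 window held 23 CpG, the Vmn2r1 window 4, and the windows of Vmn2r27 and Vmn2r116 held 0. The median over the 115 members was 1 CpG (range 0 to 23), against a median of 7 (range 0 to 65) over all 27025 RefSeq windows. At least 1 CpG was present in 72.2% of the member windows, against 94.2% of all windows, and 32 members had none. Only Vmn2r29 among the 115 had 5 or more CpG, or 0.870%, against 61.7% of all windows. Other receptor families were similarly poor in CpG: the median was also 1 in the windows of 205 type 1 vomeronasal receptor (Vmn1r) genes and of 934 olfactory receptor genes.

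**Figure D1:**
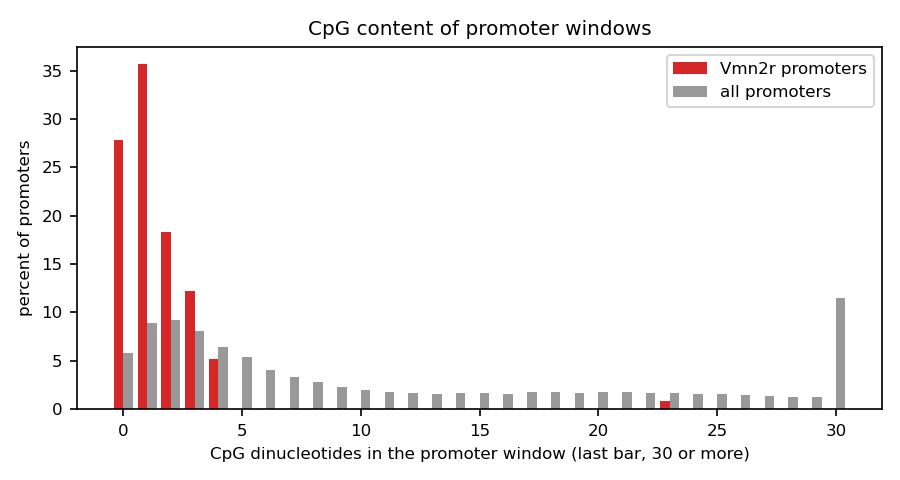
Number of CpG in the 300-base RefSeq promoter window (horizontal axis, last bar 30 or more) against the percentage of windows (vertical axis), red for Vmn2r genes and grey for all genes. Of the member windows, 27.8% had no CpG, against 5.78% of all windows, and the 1 member with 23 CpG is Vmn2r29.

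Vmn2r29 was also the single member whose promoter window carried a peak. The overlapping peak covered all 300 bases in transgenic replicates 1, 2 and 3, against 289 bases in wild-type replicate 1, 300 in wild-type replicate 2 and 0 in wild-type replicate 3. Its score was 1163, 993 and 701 in the transgenic replicates, against 282 and 687 in wild-type replicates 1 and 2, and in wild-type replicate 3 a peak of score 152 ended 30 bp short of the window. Every transgenic score lay above every wild-type score at this promoter, with transgenic replicate 3 and wild-type replicate 2 almost level. Over all 25748 autosomal promoter windows, a peak was present at 5.36%, 4.34% and 3.09% in the transgenic libraries, against 2.04%, 4.56% and 0.711% in the wild-type libraries. Among the members this share was 0.870% in each of the first 5 of these libraries and 0 in wild-type replicate 3. The Vmn2r29 window was the least like that of any other member, with at best 46.3% of its bases identical, while the median best identity over the members was 90.7%.

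Few members carried a peak in any lung. A peak was present at 34, 32 and 28 of the 122 genes in transgenic replicates 1 to 3, against 20, 30 and 18 genes in wild-type replicates 1 to 3. These shares were 27.9%, 26.2% and 23.0% in the transgenic libraries, against 16.4%, 24.6% and 14.8% in the wild-type libraries. The exact (Clopper-Pearson) 95% binomial intervals, which cover counting error only, ran from 20.1% to 36.7% in transgenic replicate 1 and from 8.98% to 22.3% in wild-type replicate 3. Transgenic libraries averaged 25.7 ± 2.504% and wild-type libraries 18.6 ± 5.27% (SD, n = 3 each). All 3 transgenic shares lay above wild-type replicates 1 and 3, and wild-type replicate 2 lay between transgenic replicates 2 and 3. The difference of 7.10 percentage points had p = 0.2 by exact permutation of the libraries (two-sided), where the smallest p that 3 against 3 can give is 0.1, and 0.333 after Benjamini-Hochberg adjustment over the 5 comparisons of the groups. Leaving out wild-type replicate 2 made the difference 10.11 points.

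Peak density at the members was highest in transgenic replicates 1 and 2 and lowest in wild-type replicate 3. The merged gene windows of 3.44 Mb held 60, 57 and 48 peaks in the transgenic libraries, against 34, 56 and 26 in the wild-type libraries. Per Mb this was 17.5, 16.6 and 14.0 peaks in the transgenic libraries, against 9.89, 16.3 and 7.57 in the wild-type libraries, with means of 16.0 ± 1.82 in transgenic and 11.3 ± 4.52 in wild-type libraries (SD, n = 3 each). The difference of 4.75 peaks per Mb had p = 0.2 by the exact permutation test (adjusted 0.333), and it was 7.27 when wild-type replicate 2 was left out and 2.91 when wild-type replicate 3 was. With each list cut to its 30640 highest-scoring peaks, the length of the shortest list, it was 0.873 (exact permutation p = 0.1). The covered length averaged 9.03 ± 1.67 kb per Mb in transgenic libraries and 5.33 ± 3.58 kb per Mb in wild-type libraries (SD, n = 3 each). The median distance from a member to its nearest peak was 6557.5, 7185.5 and 8836 bp in the transgenic libraries, against 15262.5, 7771.5 and 21164 bp in the wild-type libraries. Its difference in means was -7206 bp (exact permutation p = 0.2, adjusted 0.333), and the value was -10687 bp when wild-type replicate 2 was left out and -3991 bp when wild-type replicate 3 was. It was -1268 bp with lists of equal length (exact permutation p = 0.4) and -40876 bp with peaks scoring no less than 96.3, the pooled median (exact permutation p = 0.2). For the share, the density and the distance alike, the 6 libraries stood in the order of their list lengths.

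The other protein-coding genes differed between libraries in the same order. Their share with a peak was 69.8%, 68.5% and 60.6% in the transgenic libraries, against 53.3%, 67.7% and 32.6% in the wild-type libraries. The share of members minus the share of the other genes differed by -8.003 points in transgenic against wild-type libraries (exact permutation p = 0.6, adjusted 0.6), by -13.2 points without wild-type replicate 2 and by -0.606 points once wild-type replicate 3 was left out. The ratio of member density to the density at other genes was 0.286, 0.287 and 0.372 in the transgenic libraries, against 0.357, 0.298 and 0.608 in the wild-type libraries (exact permutation p = 0.5, adjusted 0.6). Set against the other receptor genes alone (Vmn1r and olfactory), the difference between the groups in relative share took the opposite sign, at 4.45 points (exact permutation p = 0.1), and with lists of equal length it was -0.456 points against all other genes. In those lists of equal length, the share at members differed by 0.546 points between the groups (exact permutation p = 0.7).

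**Figure D2:**
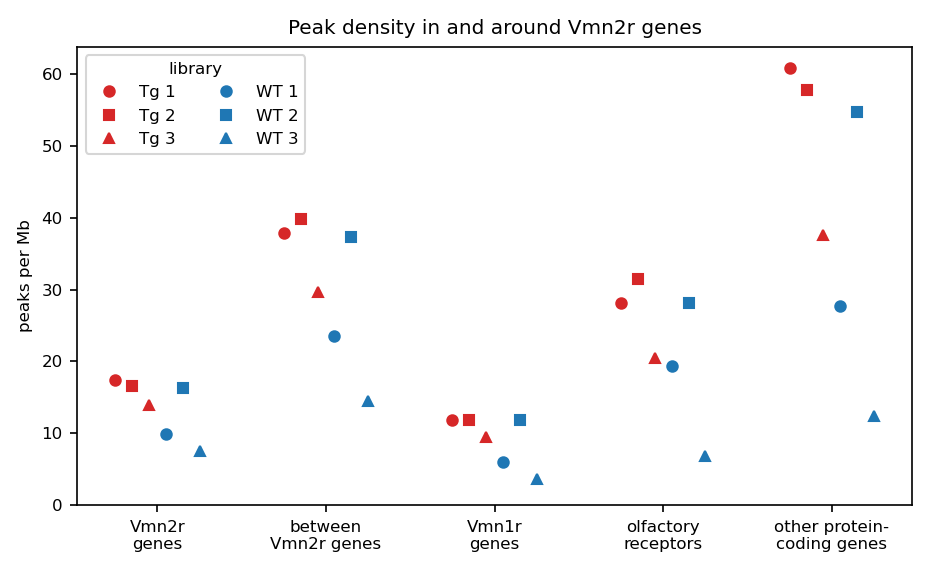
Peaks per Mb (vertical axis) at Vmn2r genes, the DNA between them, and Vmn1r, olfactory receptor and other protein-coding genes (horizontal axis); each point is 1 library, transgenic (Tg) left of wild type (WT). Member density lay between 7.57 and 17.5 peaks per Mb, below the other protein-coding genes in all 6 libraries.

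Set against other genes, the members were poor in peaks in every library. The density at the other protein-coding genes was 61.0, 57.8 and 37.6 peaks per Mb in the transgenic libraries, against 27.7, 54.8 and 12.5 in the wild-type libraries. Over the 6 libraries the members averaged 13.6 and the other genes 41.9 peaks per Mb. The difference of -28.2 was negative in 6 of 6 libraries (two-sided exact permutation test flipping the sign of each library's difference, p = 0.03125, the smallest that 6 libraries can give). The adjusted value was 0.0417 over the 4 comparisons of gene sets and 0.0938 over all 9 comparisons made. The test compares libraries, all of which read the same genes. With lists of equal length the difference was -4.28 peaks per Mb (exact permutation p = 0.03125). It was -10.02 with peaks scoring no less than 96.3 and -6.62 against the receptor genes alone (exact permutation p = 0.0625 each). The members were longer than the other genes, with a median span of 24640.5 bp (range 8397 to 142676 bp), against 17386 bp for the other genes.

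The type 1 receptors, the other vomeronasal family, had fewer peaks per Mb still. Vmn1r and olfactory receptor genes are short, with median spans of 924 and 950 bp. With 1000 bp on each side, their windows were mostly flank, unlike those of the members. Vmn1r genes had 11.9, 11.9 and 9.53 peaks per Mb in the transgenic libraries, against 5.96, 11.9 and 3.58 in the wild-type libraries. These values rest on 10, 10 and 8 peaks in the transgenic libraries, against 5, 10 and 3 in the wild-type libraries. The members exceeded them by 4.49 peaks per Mb, in 6 of 6 libraries (exact permutation p = 0.03125, adjusted 0.0417 over 4 and 0.0938 over 9 comparisons). Olfactory receptor genes had 28.2, 31.5 and 20.5 peaks per Mb in the transgenic libraries, against 19.4, 28.2 and 6.76 in the wild-type libraries. The members differed from these by -8.80 peaks per Mb on average and were lower in 5 of 6 libraries, with wild-type replicate 3 the other way (exact permutation p = 0.0625, adjusted 0.0625 over 4 and 0.141 over 9 comparisons).

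Over the clusters pooled, the DNA between members carried more peaks per Mb than the genes themselves. That DNA was all of the cluster outside the member windows and was not split by the pseudogenes or other genes in it. RefSeq lists 126 Vmn2r-ps pseudogenes on the autosomes, none of them members. With these added to the members, the density minus that of other protein-coding genes was -20.8 peaks per Mb (exact permutation p = 0.03125). In the 12 clusters with more than 1 member, gene windows had 17.6, 16.7 and 14.2 peaks per Mb in the transgenic libraries, against 9.999, 16.4 and 7.57 in the wild-type libraries. Between the genes, the density was 37.9, 39.9 and 29.7 peaks per Mb in the transgenic libraries, against 23.6, 37.3 and 14.5 in the wild-type libraries. The pooled difference of gene windows minus the DNA between averaged -16.7 peaks per Mb and was negative in 6 of 6 libraries (exact permutation p = 0.03125, adjusted 0.0417 over 4 and 0.0938 over 9 comparisons). Taken singly, 9 of the 12 clusters had the lower density in their genes in all 6 libraries. The cluster from Vmn2r53 to Vmn2r56 went the other way in all 6. That from Vmn2r57 to Vmn2r126 did so in transgenic replicate 3 and wild-type replicates 2 and 3, and that from Vmn2r29 to Vmn2r52 in wild-type replicate 3. In the cluster from Vmn2r53 to Vmn2r56 the DNA between the genes was only 0.0271 Mb. It held 1, 1 and 1 peaks in the transgenic libraries, against 1, 1 and 0 in the wild-type libraries.

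Most members had no peak in any lung. Of the 122 genes, 83 (68.0%) had none in all 6 lists, against 25.3% of the other protein-coding genes, and 16 (13.1%) had one in all 6 lists, against 29.1%. The 39 members with a peak in at least 1 list had a median span of 33717 bp and the 83 without had 18781 bp. Across the members, Spearman's rho between span and number of peaks was 0.473 (n = 122), a description over genes that share libraries and clusters. For promoter CpG and number of peaks it was 0.212 (n = 115). Near-identical copies can lose or share reads, depending on how reads that fit several places were treated, and that treatment is not given in the sources used. Of 35 members whose promoter was at least 95% identical to that of another member, 13 (37.1%) had a peak in at least 1 list, against 23 of 80 (28.8%) of the less alike members. Within the cluster from Vmn2r29 to Vmn2r52, only Vmn2r35 and Vmn2r38 of these alike members had one. Just 1 of the 72 regions at members overlapped a promoter, so the split does not cover likeness at the regions themselves. Loss of reads was not tested. Vmn2r122 is listed at position 3536 to 11935 of chromosome 4, and the first peak of any list on that chromosome began at 3049929, so it counts as a member without a peak.

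The genes came in 18 clusters on 8 chromosomes, taking members less than 1000000 bp apart as 1 cluster, and 6 clusters held 1 member each. The largest was on chromosome 7 from Vmn2r29 to Vmn2r52, with 24 members. The same 4 of these, Vmn2r29, Vmn2r35, Vmn2r38 and Vmn2r46, had a peak in every library and the other 20 had none in any. The DNA between the genes of this cluster held 97, 101 and 82 peaks in the transgenic libraries, against 58, 90 and 35 in the wild-type libraries. The next largest, on chromosome 17 from Vmn2r90 to Vmn2r110, had 22 members, of which 5 had a peak in at least 1 list and 1, Vmn2r91, in all 6. The chromosome 7 cluster from Vmn2r65 to Vmn2r79 had 15 members, 4 with a peak in at least 1 list and 0 in all 6.

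In 5 of 6 libraries the densest cluster was a small one on chromosome 7 from Vmn2r53 to Vmn2r56, and in wild-type replicate 3 it was Vmn2r118, a cluster of 1 gene. The 4 members of that small cluster had 55.2, 55.2 and 39.5 peaks per Mb in the transgenic libraries, against 39.5, 55.2 and 15.8 in the wild-type libraries. The other protein-coding genes had 61.0, 57.8 and 37.6 peaks per Mb in the transgenic libraries, against 27.7, 54.8 and 12.5 in the wild-type libraries. The cluster was thus below them in transgenic replicates 1 and 2 and above them in transgenic replicate 3 and every wild-type replicate. It held 7, 7 and 5 peaks in the transgenic libraries, against 5, 7 and 2 in the wild-type libraries. The chromosome 17 cluster from Vmn2r111 to Vmn2r117 had 7 members and 1 peak in all, at Vmn2r117 in transgenic replicate 1. The pair on chromosome 14, Vmn2r88 and Vmn2r89, had none. On chromosome 5, 3 of the 10 members from Vmn2r8 to Vmn2r17 had a peak in at least 1 list and 1 had it in all 6. On chromosome 6, 5 of the 9 from Vmn2r19 to Vmn2r27 had one, and only Vmn2r27 in all 6. The cluster with the most members carrying a peak in some list, 6 of 8, was on chromosome 7 from Vmn2r57 to Vmn2r126, and 3 of these had one in all 6 lists.

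**Figure D3:**
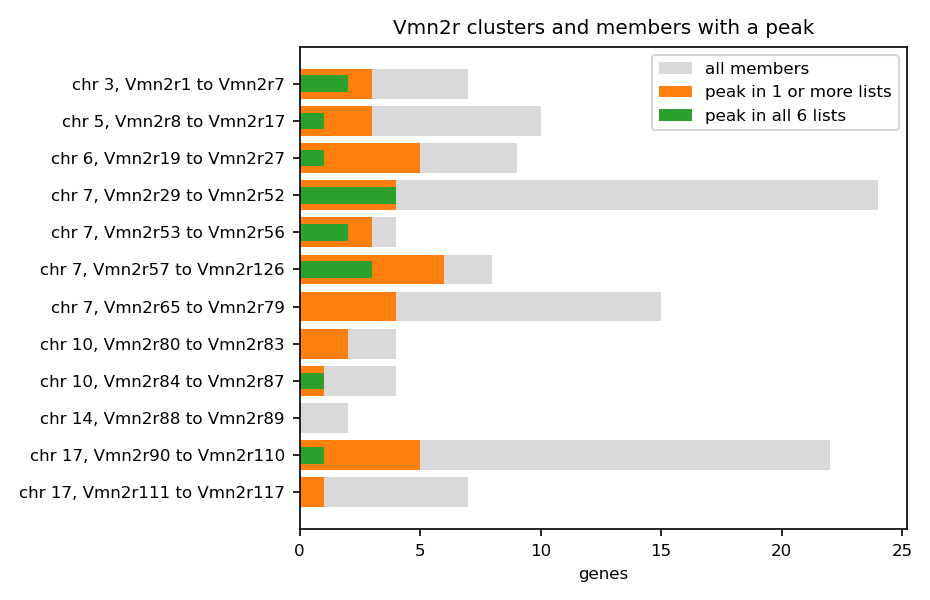
Number of genes (horizontal axis) in each of the 12 clusters of more than 1 member, in genome order from the top (vertical axis); grey bars are all members, orange bars those having a peak in any list and green bars those with a peak in all 6 lists. In the largest cluster, of 24 members, the orange and green bars both end at 4.

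By known role, the broadly co-expressed family C receptors come first. Vmn2r1 to Vmn2r7 form a cluster of 7 genes on chromosome 3, and 3 of them had a peak in at least 1 list. Vmn2r1 spans 142676 bp, the longest member, and had 3, 1 and 1 peaks in the transgenic libraries, against 1, 1 and 1 in the wild-type libraries. Its best score was 146, 61.9 and 88.3 in the transgenic libraries, against 71.7, 63.5 and 64.1 in the wild-type libraries, low values that overlap between the groups. Vmn2r7 had best scores of 221, 132 and 89.4 in the transgenic libraries, against 85.8, 132 and 90.6 in the wild-type libraries, and the region also overlaps the pseudogene Vmn2r-ps11.

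Of the receptors with a known peptide ligand, Vmn2r116 had no peak and Vmn2r26 had few. Vmn2r26, a receptor for peptides presented by the major histocompatibility complex, had 1 peak in transgenic replicate 1 (score 69.7) and 1 in wild-type replicate 2 (score 67.3), and 0 in the other 4 libraries. Vmn2r116, the ESP1 receptor, had no peak in any library, with the nearest 8175 to 8349 bp away in 5 libraries and 50310 bp away in wild-type replicate 3. Vmn2r115, in the same cluster, also had none, and its nearest peak in any list was 9244 bp away. Leaving aside Vmn2r122, the members farthest from a peak lay at large distances: the nearest one of any list was 63464 bp from Vmn2r105, 60700 bp from Vmn2r80, 48311 bp from Vmn2r32 and 48198 bp from Vmn2r108.

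The highest score at any member was in Vmn2r27 (chromosome 6, 124191596 to 124231784, minus strand), whose region at 124211298 to 124212784 spans 1487 bp. Its score was 1277, 980 and 603 in the transgenic libraries, against 325, 781 and 240 in the wild-type libraries. Wild-type replicate 2 was above transgenic replicate 3, so the groups overlap, and the score stood at the 99.4 to 99.8 percentile of the peaks of each list. This member has no CpG in its promoter window, and the region lies inside the gene.

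Vmn2r58 had best scores of 896, 643 and 453 in the transgenic libraries, against 355, 535 and 93.3 in the wild-type libraries. Vmn2r57 had 919, 507 and 268 in the transgenic libraries, against 217, 436 and 128 in the wild-type libraries. Vmn2r55 had 761, 733 and 336 in the transgenic libraries, against 203, 509 and 117 in the wild-type libraries. In all 3 genes wild-type replicate 2 was above transgenic replicate 3. Vmn2r35 had the most peaks of any member, with 5, 7 and 7 in the transgenic libraries, against 2, 6 and 5 in the wild-type libraries. Its best score was 297, 178 and 220 in the transgenic libraries, against 93.1, 208 and 73.7 in the wild-type libraries. Vmn2r60 had 4, 5 and 4 peaks in the transgenic libraries, against 5, 5 and 2 in the wild-type libraries, and its best score was 377, 358 and 168 in the transgenic libraries, against 116, 292 and 106 in the wild-type libraries. Vmn2r38 had 3, 3 and 3 peaks in the transgenic libraries, against 3, 4 and 2 in the wild-type libraries. Its best scores of 408, 320 and 281 in the transgenic libraries were all above the 140, 185 and 128 of the wild-type libraries. They come from different regions of the gene. At 9081416 to 9082161, wild-type replicate 2 (185) was above transgenic replicate 3 (146). At 9075878 to 9076731, wild-type replicate 2 (170) was above transgenic replicate 2 (144). At 9082495 to 9083209, every transgenic score was above every wild-type score.

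Vmn2r46 had best scores of 311, 215 and 167 in the transgenic libraries, against 120, 251 and 109 in the wild-type libraries. Vmn2r56 had 4, 4 and 2 peaks in the transgenic libraries, against 2, 4 and 0 in the wild-type libraries, so wild-type replicate 3 was the single library without one. Over the 16 members with a peak in all 6 lists, the median best score was 437, 354 and 221 in the transgenic libraries, against 118, 282 and 91.9 in the wild-type libraries.

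**Figure D4:**
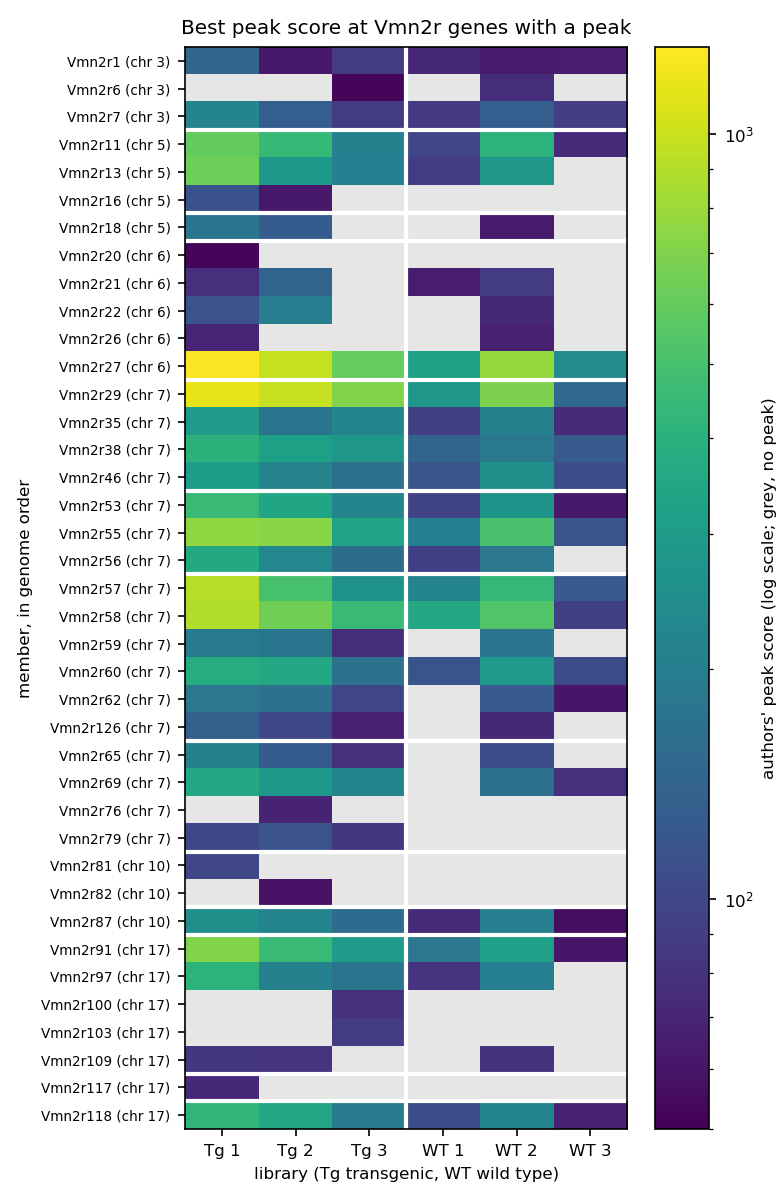
Best peak score, as colour on a log scale, at the 39 members with a peak (vertical axis, genome order, white lines between clusters) in each library (horizontal axis, Tg transgenic, WT wild type); grey means no peak. The brightest cells are Vmn2r27 and Vmn2r29 in transgenic replicate 1, at 1277 and 1163, and 16 rows have no grey cell.

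Merging overlapping peaks of the 6 lists gave 72 regions at members, of which 49 were in 3 or more lists, 18 in all 6 and 16 in only 1. Peaks of transgenic libraries alone made up 16 of the 72 regions (22.2%), against a background of 25.8% of all 158077 autosomal regions. Peaks of wild-type libraries alone made up 5 (6.94%), against a background of 11.5%. Of the 68 regions at members whose strand was known, 31 (45.6%) lay in the last part of the gene when each span was cut into 3 equal parts, 19 in the middle part and 15 in the first. The 31 regions came from 19 members. Other genes were not split in this way, so whether such a spread is particular to the members was not tested. A further 1 lay in the upstream flank, at Vmn2r69, and 2 in the downstream flank. The exons were not used, so it is not known which regions lie in coding sequence. At the 18 regions in all 6 lists, transgenic replicate 1 scored highest in 18 and wild-type replicate 3 lowest in 15. Wild-type replicate 2 scored above transgenic replicate 3 in 14 of the 18, and every transgenic score exceeded every wild-type score in 3 (16.7%), against a background of 13% of the 16742 autosomal regions in all 6 lists. The median score over these 18 was 392, 326 and 215 in the transgenic libraries, against 112, 249 and 82.1 in the wild-type libraries. Over those 16742 regions it was 425, 287 and 183 in the transgenic libraries, against 105, 253 and 78.0 in the wild-type libraries. The order of the libraries was the same at the member regions as over all autosomal regions.

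**Figure D5:**
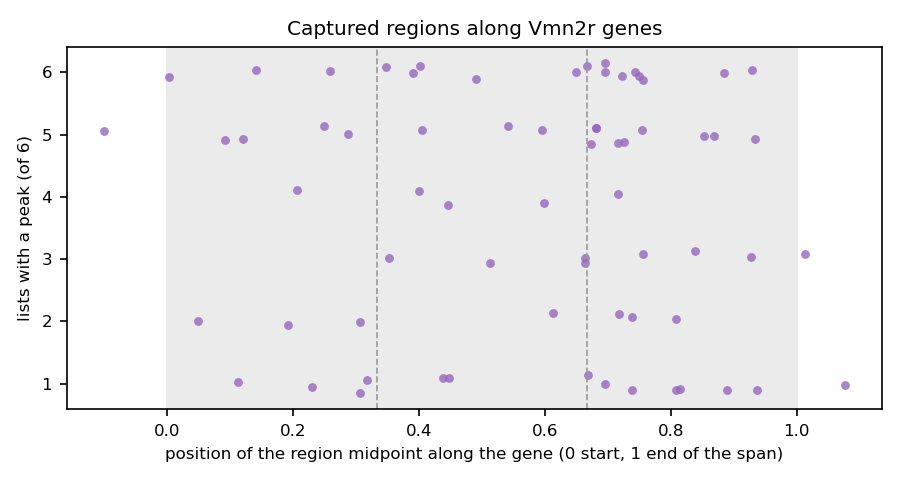
Midpoint of each of the 68 regions along the gene span, from 0 at its start to 1 at its end (horizontal axis), against the number of lists with a peak (vertical axis, points spread slightly to separate them). The dashed lines cut the grey span into 3 equal parts, and 31 regions, from 19 members, lie in the last.

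A member that had a peak in every transgenic and no wild-type library was rare. There was 1 of 122 (0.820%), Vmn2r79, against a background of 0.571% of all protein-coding autosomal genes, 118 of 20665. Its region, chromosome 7 from 87038362 to 87038655 (294 bp), lies in the downstream flank. It scored 101, 115 and 83.5 in the transgenic libraries, where the lists begin at 50, and had no peak in the wild-type libraries, where the nearest lay 11000, 11007 and 11012 bp away. With no flank the count of such members was 0, and it was 4 without wild-type replicate 2 and 2 without transgenic replicate 3. The share over all genes was not computed for these settings, so these counts have no background. The reverse pattern, in every wild-type and no transgenic library, was found at 0 members against a background of 0% of genes.

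No member overlapped a differentially methylated region of the authors' deposited table, which lists 407 regions. The background was 0.76% of all protein-coding autosomal genes, 157 of 20665, and 0 of 122 allows a share of up to 2.46% (3 counts). Of the 49 member regions in 3 or more lists 0 were differential, against 0.405% of the 87959 autosomal regions in 3 or more lists, and this allows up to 6.12%. Both limits treat genes or regions as independent, although they share libraries and clusters. The table holds only regions with an FDR up to 0.0996, so how many member regions had a smaller unadjusted p-value was not analysed here.

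In the authors' deposited table, 3 rows lay between members of a cluster without touching one. They were 1 of 20 regions in 3 or more lists from Vmn2r8 to Vmn2r17 and 1 of 59 from Vmn2r65 to Vmn2r79. The other was 1 of 78 from Vmn2r90 to Vmn2r110. The remaining clusters had 0, among them the largest, from Vmn2r29 to Vmn2r52, with 100 such regions. The background was 0.405% of the 87959 autosomal regions in 3 or more lists. The 3 clusters are named because each held such a row, so their single shares cannot show an excess over this background. The share over all clusters pooled was not computed. According to the authors' deposited table, a region at chromosome 5, 109145919 to 109147190, had a log2 fold change of 0.57 for transgenic over wild type (FDR 0.0259), with mean log2 concentrations of 6.67 in transgenic and 6.10 in wild type. It lies 8878 bp from Vmn2r13, to which the table's own annotation assigns it. Its score in the lists was 1124, 861 and 469 in the transgenic libraries, against 155, 558 and 85.5 in the wild-type libraries.

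A second row of the authors' deposited table, on chromosome 7 at 86118566 to 86120141, had a log2 fold change of 0.67 (FDR 0.00923) and lies 27901 bp from Vmn2r75. The score was 1263, 874 and 508 in the transgenic libraries, against 175, 576 and 81.1 in the wild-type libraries. A further row of the authors' deposited table, on chromosome 17 at 19103684 to 19104857, had a log2 fold change of 0.57 (FDR 0.0695) and lies 22374 bp from Vmn2r98. The score was 1171, 819 and 482 in the transgenic libraries, against 239, 543 and 62.7 in the wild-type libraries. In all 3 regions wild-type replicate 2 scored above transgenic replicate 3. Vmn2r13 itself had 3, 2 and 2 peaks in the transgenic libraries, against 1, 1 and 0 in the wild-type libraries.

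Genes with a part in vomeronasal sensing, among them that of the pheromone ESP1, were taken from a list of 22, of which 21 were found. Not all of them are partners of type 2 receptors. A peak in all 6 lists was present at 6 of them (28.6%), against 29.1% of the other protein-coding genes, and 12 (57.1%) had a peak in none, against 25.3%. The remaining 3, the chloride channel Ano1, the chaperone Calr4 and the transcription factor Tfap2e, had a peak in every list but that of wild-type replicate 3. The 6 were Ano2, a calcium-activated chloride channel, Bcl11b, a transcription factor, the G protein subunits Gnai2 and Gnao1, the olfactory marker protein gene Omp and Trpc2. The H2-M genes, nonclassical class I genes expressed in vomeronasal neurons, were short (2141 to 3414 bp) and all 9 had no peak in any list. Trpc2, the transduction channel, had best scores of 344, 195 and 82.8 in the transgenic libraries, against 50.6, 301 and 96.4 in the wild-type libraries. Gnao1 had 246, 166 and 92.1 in the transgenic libraries, against 80.5, 163 and 58.8 in the wild-type libraries. At both genes wild-type replicate 2 was above transgenic replicate 3. In the authors' deposited table, 1 of the 21, Bcl11b, overlapped a differential region, against a background of 0.76% of all protein-coding autosomal genes. Bcl11b spans 93743 bp and had 57 peaks summed over the 6 lists. In the peak lists, 0 of the 21 had a peak in every transgenic and no wild-type list or the reverse. The backgrounds were 0.571% and 0% of genes.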

How the data were processed

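MBD-seq libraries of 3 transgenic and 3 wild-type lungs, biological replicates per the labels, were grouped by title. The submitters' processing notes name Bowtie, DiffBind, edgeR and mm10, with no versions. The authors deposited a peak list per library, with a score for each peak, and peak names of MACS form per the file headers and rows; the caller's settings were not given. The authors' deposited table of 407 differential regions holds log2 concentrations, a log2 fold (transgenic minus wild type), p-values and FDR, and distances to genes. Its starts are printed as deposited and other coordinates count from 1.

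Members and lists were chosen with earlier results of these data known. Gene spans were RefSeq GRCm38.p6 and windows were spans with 1000 bp on each side. Peaks per Mb used merged windows, and overlap of 1 base counted. Groups were compared with exact permutation tests (3 against 3, smallest p 0.1) and gene sets with sign flips over 6 libraries (smallest p 0.03125), both two-sided, with Benjamini-Hochberg adjustment within 5 and 4 tests and over all 9. The genes named were members within 50000 bp of a differential region, the 10 in all 6 lists with the highest lowest score, any with peaks in all lists of only 1 group, the 5 farthest from a peak, the 5 with most peaks, Vmn2r1, Vmn2r26, Vmn2r115 and Vmn2r116, and the cluster borders; Vmn2r69 and Vmn2r91 were named after their values were seen. Alternatives changed the flank, overlap, score minimum, list length, compared genes and libraries. Python 3.11.15, numpy 2.4.6, pandas 2.3.3, scipy 1.17.1 and matplotlib 3.10.9 were used, and the scripts were tested on simulated data.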

Additional observations from a re-analysis of the deposited data

How the results depend on the processing

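The lower peak density at members than at other protein-coding genes kept its direction on average under all alternatives run, but 8 of 15 missed the threshold. It was -10.02 peaks per Mb with peaks scoring no less than 96.3, the pooled median, (exact permutation p = 0.0625, wild-type replicate 3 the other way at 0.171), and -6.62 against Vmn1r and olfactory receptor genes (p = 0.0625, exact permutation). With lists of 30640 top peaks each it was -4.28, the smallest of the alternatives (exact permutation p = 0.03125), and the group differences became 0.873 peaks per Mb, 0.546 points and -1268 bp. Leaving out 1 library gave -32.9 to -25.2, all with exact permutation p = 0.0625, the smallest that 5 libraries allow. The value of -6.62 pools Vmn1r with olfactory receptor genes, and against Vmn1r genes alone the members were higher by 4.49 peaks per Mb. The share of members minus other genes, transgenic minus wild type, was -8.003 points against all other genes and turned to 4.45 against receptor genes (exact permutation p = 0.1); the cause was not tested. The count of members with peaks in all transgenic and no wild-type lists was 0 with no flank and 0 at the higher score. It was also 0 with lists of 30640 top peaks and ran from 1 to 4 without 1 library. No share over all genes was computed for these settings. By the annotation in the authors' deposited table, 1 member had a differential region. Without 1 library, the share difference ran from 5.19 to 10.11 points, the density difference from 2.91 to 7.27 peaks per Mb, the distance difference from -10687 to -3991 bp and the share minus other genes from -13.2 to -0.606 points. With replicate numbers as a block, the pairing gave 7.10 points, 4.75 peaks per Mb and -7206 bp (p = 0.25 each, exact permutation, the smallest that 3 pairs allow) and -8.003 points (exact permutation p = 0.5). The numbers were not taken as pairs, since same-numbered libraries correlated at -0.041, 0.067 and 0.174. Leaving out genes listed before 3 Mb, and members with near-identical promoters, was chosen after the data were seen and changed no direction. List length limits what could be seen in wild-type replicates 1 and 3.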
